A study of Mus musculus with 30 samples.

Results

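Phase I and phase II detoxification enzymes were followed in the colon mucosa of mice given azoxymethane (AOM) and dextran sulfate sodium (DSS). The members were chosen by gene symbol. They were genes of the cytochrome P450 families 1 to 4 whose symbol ends in a number (Cyp), of the UDP-glucuronosyltransferase families 1 and 2 (Ugt), of the alpha, kappa, mu, omega, pi and theta classes of glutathione S-transferases (Gst) and of the sulfotransferase families 1 to 6 (Sult). P450 symbols that end in a letter, such as Cyp3a41a, and the zeta class gene Gstz1 were outside the rule. They were 135 of 46078 gene entries, with 75 Cyp, 22 Gst, 19 Ugt and 19 Sult entries. Gstp1 and Gstp2 are each entered a second time, on a patch sequence, and those 2 entries have no counts. Of these, 107 had at least 1 count in the 30 libraries and 28 had none, and 71 had enough counts to be tested (38 Cyp, 18 Gst, 9 Ugt and 6 Sult genes). The 64 untested members are described by their counts and levels only.

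Tissue came from wild-type male and female C57BL/6J mice that were 5 to 10 weeks old at the start of the study. AOM/DSS mice received 1 intraperitoneal injection of AOM at 10 mg/kg followed by 3 cycles of 2.5% DSS, an agent that inflames the colon, and were killed at 9 weeks or at 15 weeks, whereas control mice were given the vehicle, saline, and all of them were killed at 9 weeks. Each of the 6 groups (vehicle, AOM/DSS 9 weeks and AOM/DSS 15 weeks in each sex) held 5 mice with 1 RNA library per mouse, made from the epithelial layer scraped off non-tumour colon. The same vehicle mice served both time points and none was killed at 15 weeks, so that at 15 weeks treatment and elapsed time cannot be told apart.

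Phase I enzymes, mainly the P450s, add or unmask a reactive group on a foreign compound, and phase II enzymes couple such groups to glucuronic acid (Ugt), glutathione (Gst) or sulfate (Sult), which makes the product more soluble and easier to export. AOM is itself a procarcinogen, and Cyp2e1, best known from the liver, is the P450 that hydroxylates it on the way to the alkylating species. In the intestine these enzymes are made mostly by the absorptive epithelium, many under the control of nuclear receptors, the aryl hydrocarbon receptor, NRF2 and hepatocyte nuclear factors.

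The promoters of the members were searched for motifs known to be bound by such factors and by clock proteins. RefSeq promoters of 300 bases (250 before and 50 after the start) were found for 113 of the 135 members, 61 of them tested. Both strands were searched for 5 motifs. The HNF4A motif CAAAGTCCA was in the promoters of 6 of these 61 members (9.84%) and in 0.475% of all 32851 promoters; 5 of the 6 were the neighbouring and closely similar genes Cyp2c40, Cyp2c65, Cyp2c67, Cyp2c68 and Cyp2c69 on chromosome 19, and the other was Cyp3a11. The antioxidant response core TGACNNNGC was in 6 members (9.84%, against 12.4% of all promoters), the xenobiotic response core GCGTG in 13 (21.3%, against 32.4%), the HNF1 motif GTTAAT in 9 (14.8%, against 7.1%) and the D-box TTATGTAA in 1 (1.64%, against 0.938%). These matches are descriptions of the letters and not evidence of binding. The promoters shown are those of Gsta3, the member called higher at both times, Cyp2c65 and Cyp2c69 from the chromosome 19 cluster, and Cyp3a11, the holder of the HNF4A motif outside that cluster. The sequences are RefSeq's on GRCm38.p6, read 5′ to 3′ on the gene's strand, at chr1:21240335-21240634 (plus strand) for Gsta3, chr19:39060756-39061055 (plus) for Cyp2c65, chr19:39886720-39887019 (minus) for Cyp2c69 and chr5:145879805-145880104 (minus) for Cyp3a11. Capitals mark the motif matches on either strand.
Gsta3: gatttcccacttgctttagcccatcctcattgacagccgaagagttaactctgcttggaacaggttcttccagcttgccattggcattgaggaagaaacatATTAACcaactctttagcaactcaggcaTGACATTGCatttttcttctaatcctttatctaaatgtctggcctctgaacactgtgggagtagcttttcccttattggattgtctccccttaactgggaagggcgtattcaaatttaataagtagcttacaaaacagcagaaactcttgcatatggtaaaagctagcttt
Cyp2c65: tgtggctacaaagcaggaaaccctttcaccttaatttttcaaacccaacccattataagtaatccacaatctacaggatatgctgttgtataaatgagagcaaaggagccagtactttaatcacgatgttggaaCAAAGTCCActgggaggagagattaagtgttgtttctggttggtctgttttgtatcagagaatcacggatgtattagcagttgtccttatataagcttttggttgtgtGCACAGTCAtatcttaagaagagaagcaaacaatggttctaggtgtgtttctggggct
Cyp2c69: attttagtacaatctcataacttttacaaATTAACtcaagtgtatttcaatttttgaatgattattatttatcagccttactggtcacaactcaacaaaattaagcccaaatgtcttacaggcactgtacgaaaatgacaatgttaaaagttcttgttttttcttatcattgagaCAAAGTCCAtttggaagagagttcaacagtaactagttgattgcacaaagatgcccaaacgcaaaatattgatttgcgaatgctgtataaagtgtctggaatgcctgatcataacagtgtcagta
Cyp3a11: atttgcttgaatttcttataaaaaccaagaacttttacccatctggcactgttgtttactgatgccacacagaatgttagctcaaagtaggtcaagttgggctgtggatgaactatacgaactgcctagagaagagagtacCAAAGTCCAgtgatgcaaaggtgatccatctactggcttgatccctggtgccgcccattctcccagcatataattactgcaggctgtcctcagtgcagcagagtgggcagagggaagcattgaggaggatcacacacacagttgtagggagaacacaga
The capitals in Gsta3 are the reverse complement of the HNF1 motif, at position -149 from the start, and an antioxidant response core at -121. In Cyp2c65 they are the HNF4A motif at -116 and the reverse complement of an antioxidant response core at -8. In Cyp2c69 they are the reverse complement of the HNF1 motif at -221 and the HNF4A motif at -75, and in Cyp3a11 the HNF4A motif alone, at -109. Positions are counted from the RefSeq start. For Cyp3a11 the authors' annotation places the start 110 bases upstream of that one, so that by their start the motif lies at the start itself.

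Counts on genes ran from 9265804 to 30806392 per library, and the members took 0.38% to 1.18% of them. The summed level of 10 epithelial markers lay between 13140 and 23780 CPM (counts scaled to library size) in all 30 libraries. Several libraries stood apart within their group. Female 9 weeks replicate 5 had a summed level of 19940 CPM for surface colonocyte markers, against 3796 to 6317 in the other 4, and of 20.7 CPM for distal colon markers, against 118.5 to 254.7. Male vehicle replicate 1 held 5436 CPM of smooth muscle markers, against 34.36 to 120.1, and female vehicle replicate 1 held 537.8 CPM of distal colon markers and 223 CPM of mesenchyme markers. Counts that change without these libraries are given with and without them. Shares of all tested genes are given for the main fit alone, so such changes are not read as particular to the members. In whole tissue, fewer cells of a type and less RNA per cell cannot be told apart.

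Levels spanned a wide range within each family. Levels between genes are given in FPKM, fragments scaled to library size and to kilobases of transcript, as the mean of the 30 libraries. At least 1 FPKM was reached by 58 of 135 members (24 Cyp, 17 Gst, 12 Ugt and 5 Sult genes), at least 10 FPKM by 41, and at least 100 FPKM by 9. The 12 Ugt genes include Ugt1a10, with a mean of 1.56 FPKM but no count in any library, and Ugt1a8, with 3.757 FPKM and 1 count. Thus 17 of 22 Gst entries, including the 2 empty patch entries, and 24 of 75 Cyp genes reached 1 FPKM.

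Among the P450s, Cyp2c55, an arachidonic acid hydroxylase, had the highest level of any member, with a mean of 732.9 FPKM and a range over libraries from 128.1 to 1802. Cyp2d34 followed with a mean of 133.5 FPKM (75.05 to 250) and Cyp2c65 with 72.21 FPKM (2.649 to 186.9). These neighbours in the order overlap in range, so their order holds for the means only. The classical inducible P450s were near the limit of detection: over all 30 libraries together Cyp1a1 had 22 counts, Cyp1b1 35 and Cyp3a11 217, and Cyp1a2 had none. Cyp2b10 had 120 counts in male vehicle replicate 1 and 0 to 9 in each other library.

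Conjugating enzymes were represented by different classes. Gsto1, of the omega class, had a mean of 254.5 FPKM (192 to 346.6), and Gstp1, of the pi class, 250.9 FPKM (141.1 to 393.5), so that these 2 did not differ beyond their spread. Gstm1, of the mu class, had 136.6 FPKM (79.48 to 197.4). The sulfotransferases were led by Sult1a1, which sulfates phenols, with 178.1 FPKM (80.35 to 274.7), Sult1b1 with 117.7 FPKM (57.72 to 149.2) and Sult1d1 with 76.93 FPKM (39.32 to 156.7). Among the glucuronosyltransferases Ugt2b34 had 130.4 FPKM (71.28 to 192.9), Ugt1a7c 93.09 FPKM (48.46 to 157.6) and Ugt1a6a 42.91 FPKM (6.538 to 134.1).

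**Figure D1:**
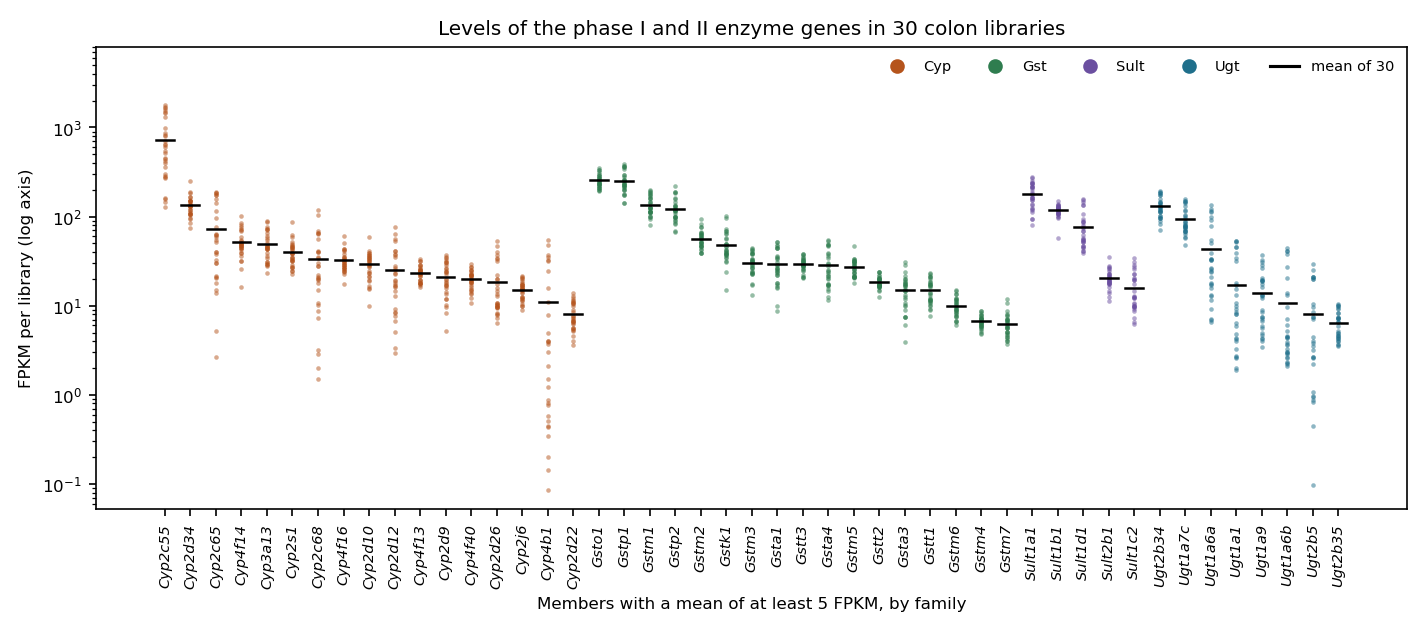
Level in FPKM (log axis) of the 47 members with a mean of at least 5 FPKM, grouped by family. Each point is 1 of the 30 libraries and each line the mean of 30. Cyp2c55 had the highest mean, 732.9 FPKM, and a range from 128.1 to 1802, and a Ugt2b5 library at 0 cannot be drawn on this axis.

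Some of these levels are uncertain because members share sequence. The 9 Ugt1a genes share 50.3% to 60.6% of their exonic bases with one another on the same strand, and the deposited counts and FPKM diverged for several of them, as for Ugt1a9, with 9 counts in all 30 libraries but a mean of 14.02 FPKM. Ugt1a values are therefore given as deposited and not as the level of a single enzyme. They enter the numbers of Ugt genes by FPKM level above and the Ugt sums below in the same way. Reads of the closely similar Cyp2c, Cyp2d, Cyp3a, Gstp and Gstm genes may likewise have been split or lost in counting.

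Mice of 1 group differed widely in some members. The median within-group SD of log2 CPM was 0.505 over the 71 tested members and 0.328 over all 16261 tested genes. It was largest for Cyp3a44 (2.36), Cyp4b1 (2.34), Cyp3a25 (2.28) and Ugt2b5 (2.04) and smallest for Gstt3 (0.141), Gstm4 (0.183) and Sult1b1 (0.186). The most variable of these were Cyp and Ugt genes and the least variable were Gst and Sult genes.

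Summed levels of each family had lower means at 9 weeks than in vehicle in both sexes, and no test was run on these sums. The summed FPKM of the Cyp genes was 1833 ± 740.7 in female vehicle, 1239 ± 796.5 in females at 9 weeks and 1756 ± 573.6 at 15 weeks (mean ± SD, n = 5 throughout). In males it was 1242 ± 377.2, 809.1 ± 102.2 and 1163 ± 341. Cyp2c55 makes up much of these sums. For the Ugt genes the sums were 446.2 ± 181.4 in female vehicle, 318.6 at 9 weeks (224.3 to 530.5) and 450.7 ± 147.3 at 15 weeks in females and 310.2 ± 106.2, 210 ± 17.91 and 265.3 ± 42.79 in males. The Gst sums were 1089 ± 211.2, 1053 ± 210 and 1277 ± 181.5 in females and 1066 ± 96.33, 960.2 ± 126.1 and 1074 ± 237 in males. In both sexes the 9-week and vehicle libraries of the Gst family overlapped, as did those of the Cyp, Ugt and Sult families. Sult sums were 520.9 ± 81.34, 383.6 ± 90.82 and 456.2 ± 95.78 in females and 410.5 ± 66.71, 317.9 ± 27.89 and 365.8 ± 34.92 in males.

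Cyp2e1 (chr7:140763739-140774975, plus strand, GRCm38) was barely detected in the colon. All 30 libraries together held 311 of its counts. In female vehicle mice the 5 libraries had 12, 0, 8, 12 and 10 counts, and in male vehicle mice 3, 52, 35, 30 and 43. At 9 weeks the counts were 2, 1, 4, 0 and 0 in females and 12, 0, 5, 4 and 0 in males. The highest 9-week library thus equalled the highest female vehicle libraries and lay under 4 of 5 male vehicle ones. At 15 weeks the counts were 4, 13, 9, 12 and 9 in females and 2, 0, 4, 0 and 25 in males, within the range of the vehicle libraries. A library at 0 allows up to 3 counts.

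The mean level of Cyp2e1 was 0.3407 FPKM in vehicle, 0.03403 at 9 weeks and 0.1152 at 15 weeks (n = 10 each). Its log2 fold change at 9 weeks was -2.92 ± 0.72 (SE, sexes averaged) with an edgeR adjusted p of 0.00564. With a mean under 1 FPKM in every group it falls below the level required for a call and is not counted among the called genes. Leaving out any 1 of the 20 libraries kept the direction and an adjusted p of at most 0.0134. At 15 weeks the log2 fold change was -1.21 (adjusted p = 0.183), and between 15 and 9 weeks it was 1.71 (adjusted p = 0.157). Without male 15 weeks replicate 5 the adjusted p between 15 and 9 weeks was 0.539. In females alone the 15-week value was -0.10 (adjusted p = 0.975), and the sex interaction at 15 weeks, male minus female, was -2.22 (adjusted p = 0.728). Cyp2e1 is also made by liver and fat. The 7 adipocyte markers summed to 8.135 to 25.27 CPM in female and 11.84 to 23.58 CPM in male vehicle libraries, and to 6.302 to 19.51 and 7.492 to 14.07 CPM at 9 weeks; 4 of 5 tested ones were below 0 on the log2 scale at 9 weeks and 1 was called lower. The 6 hepatocyte markers summed to 4.368 to 53.23 CPM in vehicle and 3.978 to 22 CPM at 9 weeks, with 1 count of Fgb in all libraries. Each of the 2 sums rested mainly on 1 gene. Over all libraries Ttr had 12605 counts and the next hepatocyte marker, Alb, 1349. Cidec had 8092 counts and the next adipocyte marker, Cfd, 1165. The part of other cells in the Cyp2e1 values was not tested.

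**Figure D2:**
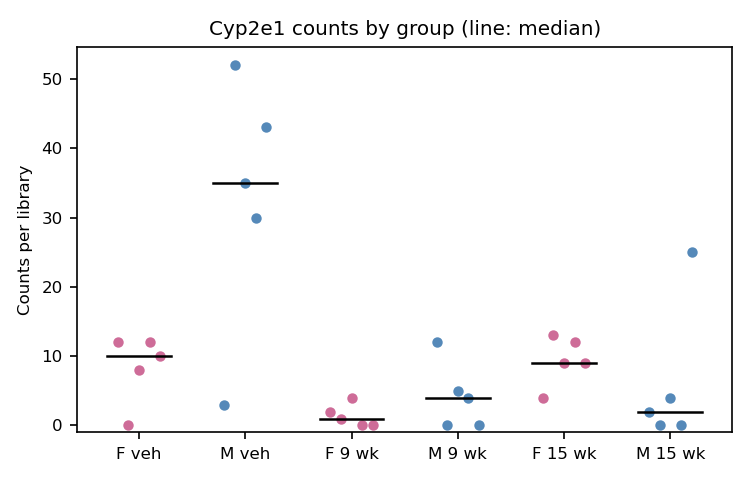
Counts of Cyp2e1 in each of the 30 libraries, by group, with the group median as a line. The highest library, with 52 counts, is a male vehicle mouse, and no 9-week library exceeds 12.

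At 9 weeks of AOM/DSS, more detoxification enzymes were called lower than higher against vehicle. With the sexes averaged, 13 of 71 tested members were called (2 higher and 11 lower), or 18.3% against 8.51% of all tested genes; lower calls were 15.5% of members and 2.87% of all genes, and higher calls 2.82% and 5.65%. A call required an edgeR adjusted p under 0.05, a log2 fold change beyond 0.4 in either direction and a mean of at least 1 FPKM in 1 compared group. The median log2 fold change was -0.47 over the members and -0.02 over all tested genes, and 61 of 71 members were below 0. By family, 1 Cyp gene was called higher and 5 lower of 38, 1 Gst higher and 2 lower of 18, 2 of 6 Sult lower and 2 of 9 Ugt lower, with all 9 Ugt genes below 0. Surface colonocyte markers were also lower in median, with a summed level of 10630 CPM in female vehicle (6540 to 18080) and 6236 CPM in females at 9 weeks (3796 to 19940), and of 7937 CPM (4546 to 11520) and 5383 CPM (4776 to 6015) in males. Of the 5, 4 were below 0 and none was at 0 counts, and edgeR called 0, with 0 at an unadjusted p under 0.05. The part of these cells in the members' values was not tested.

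The 2 members called higher were Gsta3 and Cyp4f18. Gsta3 (chr1:21240589-21265661, plus strand), an alpha class transferase known in rodents for conjugating aflatoxin epoxide, had levels of 6.114, 7.506, 7.499, 3.946 and 10.15 FPKM in female vehicle and of 15.43, 28.78, 16.49, 17.04 and 9.831 FPKM in females at 9 weeks. In FPKM the lowest 9-week female, replicate 5, alone fell within the female vehicle range, and on the tested counts (log2 CPM) the female groups did not overlap. In males the vehicle libraries had 14.58, 18.13, 14.86, 12.37 and 18.31 FPKM and the 9-week libraries 13.11, 16.46, 17.45, 19.99 and 20, so that the male groups overlapped. The log2 fold change with the sexes averaged was 0.76 ± 0.19 (SE) with an adjusted p of 0.00589.

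Cyp4f18 (chr8:71988482-72009626, minus strand), which hydroxylates leukotriene B4 in neutrophils, was low throughout. Its level was 0.4958, 0.0462, 0.03728, 0.3977 and 0.09018 FPKM in female vehicle and 1.469, 0.896, 0.673, 2.791 and 0.249 FPKM in females at 9 weeks. In males it was 0.6498, 0.518, 0.3485, 0.4939 and 0.4658 FPKM in vehicle and 1.496, 0.8688, 1.482, 0.5532 and 0.8768 FPKM at 9 weeks. The groups overlapped in both sexes, each through 1 low 9-week library. Its log2 fold change was 1.69 ± 0.40 (adjusted p = 0.0041). Leukocyte markers moved with it: 6 of 9 were called higher at 9 weeks, and their summed level was 26.28 to 102.8 CPM in female and 49.9 to 116.9 CPM in male vehicle against 65.04 to 290.2 and 95.03 to 284.1 CPM at 9 weeks, with none of the 9 at 0 over the series. The part of leukocytes in the Cyp4f18 value was not tested.

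Sulfotransferases and glucuronosyltransferases gave the lower calls with the smallest adjusted p. Sult1c2 (chr17:53829637-53846339, minus strand), a sulfotransferase of the 1C subfamily, had levels of 12.19, 34.04, 27.33, 22.71 and 28.71 FPKM in female vehicle and of 12.52, 12.92, 12.07, 10.44 and 22.96 FPKM in females at 9 weeks. In males the levels were 30.84, 14.76, 20.12, 19.27 and 17.38 FPKM in vehicle and 9.67, 8.772, 10.01, 7.305 and 9.118 FPKM at 9 weeks. The male groups did not overlap, whereas the female groups overlapped through vehicle replicate 1, a low one, and 9 weeks replicate 5, a high one. The log2 fold change was -1.02 ± 0.19 (adjusted p = 0.00048).

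Ugt2b35 (chr5:87000860-87013275, plus strand), of the Ugt2b subfamily that glucuronidates steroids and many drugs, had levels of 6.635, 9.843, 7.069, 8.323 and 10.13 FPKM in female vehicle and of 7.246, 7.345, 5.973, 4.62 and 4.029 FPKM in females at 9 weeks. In male vehicle it was 5, 9.42, 9.106, 10.02 and 10.46 FPKM, and at 9 weeks 4.017, 4.289, 3.671, 4.738 and 4.931 FPKM. All 5 male 9-week libraries lay below the lowest male vehicle library, and the female groups overlapped. The log2 fold change was -0.81 ± 0.15 (adjusted p = 0.000273). Ugt2b34, the most abundant Ugt, was also called lower, at -0.50 ± 0.12 (adjusted p = 0.00504), from a median of 151.1 FPKM in vehicle (114.7 to 192.9, n = 10) to 108 FPKM (90.38 to 147.3, n = 10).

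The P450s called lower included members of the Cyp2c, Cyp2d and Cyp4f clusters. Cyp2d22 (chr15:82370528-82380260, minus strand) had levels of 12.26, 11.3, 13.91, 6.793 and 11.49 FPKM in female vehicle and of 4.062, 6.725, 6.527, 5.572 and 10.91 FPKM in females at 9 weeks. In males it had 10.6, 9.975, 12.87, 8.915 and 10.43 FPKM in vehicle and 5.377, 4.63, 5.444, 6.283 and 8.441 FPKM at 9 weeks. The male groups did not overlap, and the female groups overlapped through 9 weeks replicate 5 and vehicle replicate 4. Its log2 fold change was -0.81 ± 0.17 (adjusted p = 0.00152).

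Cyp2c69 (chr19:39842660-39886769, minus strand), whose promoter carries the HNF4A motif shown above, had a median of 4.363 FPKM in vehicle (1.884 to 10.63, n = 10) and 1.767 FPKM at 9 weeks (0.9196 to 4.142, n = 10). The groups overlapped in their lower part. The log2 fold change was -1.30 ± 0.37 (adjusted p = 0.0159). Cyp4f17 had -0.64 ± 0.20 (adjusted p = 0.0306, called in 15 of 20 fits that left out 1 library and lost without the 4 libraries that stood apart by markers or depth, with no filter on low counts and with the mesenchyme score), and the other 2 P450s called lower, Cyp2s1 and Cyp4f13, had -0.61 ± 0.18 (adjusted p = 0.0208) and -0.47 ± 0.12 (adjusted p = 0.00567). Cyp2c55, the most abundant member, was not called, with -0.76 and an adjusted p of 0.242. Its level ran from 159.1 to 1717 FPKM in vehicle and from 128.1 to 1802 FPKM at 9 weeks, and the highest 9-week value was female replicate 5, the library with high surface colonocyte markers.

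Of the glutathione transferases, Gstt1, a theta class enzyme that conjugates small halogenated compounds, fell from a median of 19.13 FPKM (11.59 to 23.48, n = 10) to 11.78 FPKM (8.872 to 18.27, n = 10), with a log2 fold change of -0.65 ± 0.16 (adjusted p = 0.00464). Gstm2 had -0.42 ± 0.11 (adjusted p = 0.00608). Sult1a1, the most abundant sulfotransferase, fell from a median of 225.4 FPKM (94.28 to 274.7) to 127.6 FPKM (80.35 to 231), with -0.64 ± 0.17 (adjusted p = 0.00879). In each of these the vehicle and 9-week ranges overlapped.

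The number of lower calls at 9 weeks rested in part on 1 library. Without female 9 weeks replicate 5, 24 members were called (2 higher and 22 lower; 11 Cyp, 7 Ugt, 3 Gst and 3 Sult genes), including all 13 above. How many of all genes were called in that fit is not given here, so the rise cannot be called particular to the members. Ugt1a1, the bilirubin glucuronosyltransferase, then had -1.99 (adjusted p = 0.00874) and Cyp2c55 -1.26 (adjusted p = 0.0206). Cyp4b1, known for activating aromatic amines, then had -4.0, Cyp3a44 -3.21 and Ugt2b5 -2.01, all called. For these the single library with high surface colonocyte and low distal colon markers decided the call.

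**Figure D3:**
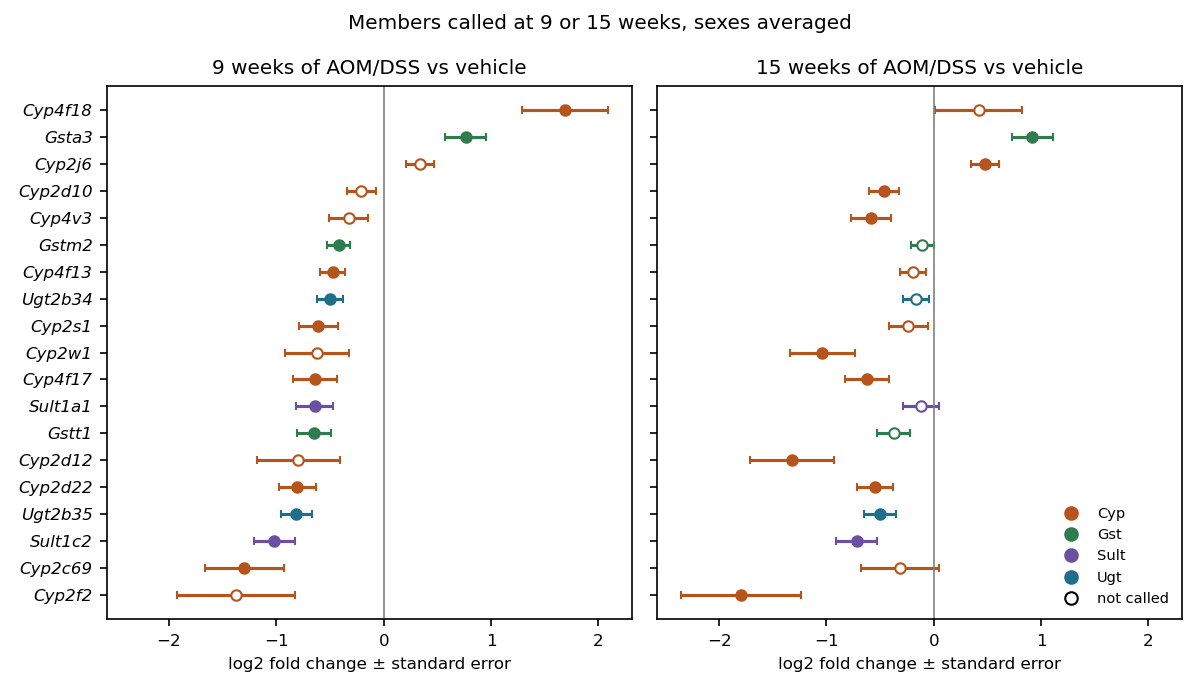
Log2 fold change ± SE against vehicle, sexes averaged, of the 19 members called at 9 or 15 weeks. Filled points were called at that time. Gsta3 was higher and Sult1c2, Ugt2b35, Cyp2d22 and Cyp4f17 were called lower at both times, Cyp4f17 in 15 and 9 of 20 fits that left out 1 library. Both times share the same vehicle mice.

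At 15 weeks of AOM/DSS, 11 of 71 members were called with the sexes averaged (2 higher and 9 lower), or 15.5% against 7.79% of all tested genes, of which 3.54% were called higher and 4.25% lower. The median log2 fold change was -0.12 over the members and -0.02 over all tested genes, and 46 of 71 members were below 0. Calls came mostly from P450s, with 1 of 38 higher and 7 lower, whereas 1 of 18 Gst was called higher and none lower, 1 of 6 Sult lower and 1 of 9 Ugt lower. Since the vehicle mice are those of the 9-week comparison, values at the 2 times are given side by side and are not independent.

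Gsta3 was again called higher, with 14.69, 10.6, 24.16, 7.45 and 19.08 FPKM in females at 15 weeks and 9.001, 11.89, 17.44, 31.04 and 21.61 FPKM in males. In FPKM the female groups overlapped through replicate 4, on the tested counts they did not (3.053 to 3.908 log2 CPM in vehicle and 3.933 to 5.371 at 15 weeks), and the male 15-week libraries spread on both sides of the male vehicle range. Its log2 fold change was 0.92 ± 0.19 (adjusted p = 0.00275), against 0.76 at 9 weeks. Cyp2j6, which epoxidises polyunsaturated fatty acids, was the other one, with a median of 12.28 FPKM in vehicle (9.003 to 17.06, n = 10) and 15.65 FPKM at 15 weeks (10.43 to 21.49, n = 10), ranges that overlapped, and a log2 fold change of 0.48 ± 0.13 (adjusted p = 0.0137).

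Sult1c2 was lower, with 19.58, 9.983, 20.71, 25.51 and 12.66 FPKM in females at 15 weeks and 10.86, 9.991, 6.213, 9.781 and 6.564 FPKM in males. As at 9 weeks, all 5 male libraries lay below the lowest male vehicle library and the female groups overlapped. The log2 fold change was -0.72 ± 0.19 (adjusted p = 0.0139). Ugt2b35 had -0.50 ± 0.15 (adjusted p = 0.0212), with a median of 4.929 FPKM (3.558 to 8.237, n = 10) against 9.263 in vehicle (5 to 10.46, n = 10). Cyp2d22 had -0.55 ± 0.17 (adjusted p = 0.0282), with a median of 6.876 FPKM (3.621 to 10.74) against 10.95 (6.793 to 13.91). For both genes the pooled ranges overlapped.

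Other P450s called lower at 15 weeks had not been called at 9 weeks, apart from Cyp4f17 (-0.62 ± 0.21, adjusted p = 0.0367). Cyp2f2, which activates naphthalene in the airway, had a median of 10.54 FPKM in vehicle (0.7133 to 17.12, n = 10) and 1.394 FPKM at 15 weeks (0.06184 to 9.551, n = 10), a log2 fold change of -1.80 ± 0.56 (adjusted p = 0.0282). Cyp2d12 had medians of 36.38 FPKM (7.736 to 75.98) and 12.7 FPKM (2.978 to 37.94) and a log2 fold change of -1.32 ± 0.39 (adjusted p = 0.0219). Both overlapped widely between groups. Cyp2w1, a P450 known from fetal colon and colon tumours, had 1.332 FPKM (0.5535 to 2.912) and 0.5259 FPKM (0.2954 to 1.755), with -1.04 ± 0.31 (adjusted p = 0.0222). Cyp4v3, a fatty acid hydroxylase, had 2.554 FPKM (1.336 to 6.57) and 1.67 FPKM (0.8172 to 2.994), with -0.58 ± 0.19 (adjusted p = 0.031). The calls of Cyp4f17 and Cyp4v3 held in 9 and 13 of 20 fits that left out 1 library. The last of the 9, Cyp2d10, had -0.46 ± 0.14 (adjusted p = 0.0247).

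Markers of other layers and of colon position moved at 15 weeks as well. With the sexes averaged, all 8 smooth muscle markers, 4 of 10 mesenchyme markers and 3 of 6 tested distal colon markers were called lower. The median smooth muscle sum was 79.34 CPM in male vehicle (5436 CPM in replicate 1) and 25.31 CPM in males at 15 weeks. In females it was 7.51 and 11.18 CPM. The distal colon markers summed to 50 to 537.8 CPM in female and 260.4 to 816 CPM in male vehicle. At 15 weeks they summed to 22.79 to 207.3 and 83.76 to 341.9 CPM. Without female vehicle replicate 1, 6 members were called, and Cyp2f2 and Cyp2d12 had adjusted p of 0.0934 and 0.0737. Without these 3 libraries that stood apart and female vehicle replicate 5, the one with the fewest counts, a choice made after seeing the data, 3 were called, namely Gsta3 (0.92), Sult1c2 (-0.73) and Ugt2b35 (-0.60). The part of position along the colon in the other P450 values was not tested.

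**Figure D4:**
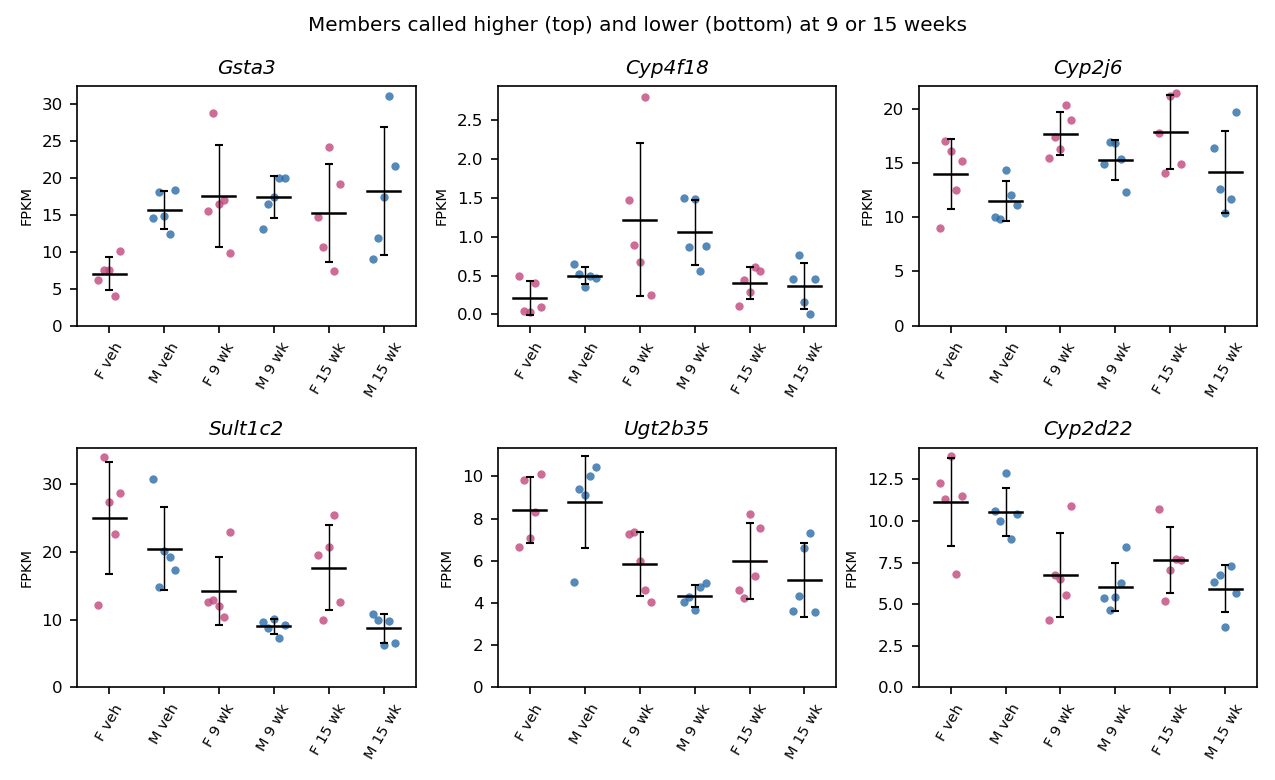
FPKM in each library with mean ± SD by group for Gsta3, Cyp4f18 and Cyp2j6 (top) and Sult1c2, Ugt2b35 and Cyp2d22 (bottom). Gsta3 in female vehicle lies between 3.946 and 10.15 FPKM, below every male vehicle library, and Sult1c2 in treated males stays at or below 10.86 FPKM.

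Compared directly between 15 and 9 weeks, 1 of 71 members was called, higher at 15 weeks, or 1.41% against 2.42% of all tested genes (0.424% were called higher). It was Gstm1, with a log2 fold change of 0.52 ± 0.13 (adjusted p = 0.0284) and medians of 118.6 FPKM at 9 weeks (79.48 to 160.9, n = 10) and 146.2 FPKM at 15 weeks (101.6 to 197.4, n = 10), which overlapped. The median log2 fold change was 0.30 over the members and -0.02 over all tested genes, 56 of 71 members were above 0, and so were all 18 Gst and all 9 Ugt genes. Without female 9 weeks replicate 5, 23 members were called, 22 higher at 15 weeks, including Cyp2c55 (1.56, adjusted p = 0.0103), and 1 lower, Cyp4f18 (-1.38). Gstm1 was called in 12 of 20 fits that left out 1 library. The count in this comparison therefore depended on that library.

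In each sex taken alone, fewer members passed. In males at 9 weeks 9 members were called, all lower (12.7% against 7.31% of all genes, 4.42% higher and 2.88% lower), led by Cyp2c69 (-1.73, adjusted p = 0.0361, called in 2 of 10 fits that left out 1 library), Sult1c2 (-1.18, adjusted p = 0.007) and Ugt2b35 (-1.01, adjusted p = 0.00251). The male count was 3 without 9-week replicate 1, 2 or 3. In females at 9 weeks 2 members were called, both higher (2.82% against 2.90%, 2.42% higher and 0.480% lower), Gsta3 (1.34 ± 0.27, adjusted p = 0.00423) and Cyp4f18 (2.26 ± 0.59, adjusted p = 0.0227, called in 5 of 10 such fits). The female share was near that of all genes, and it became 13 members, 11 of them lower, without replicate 5. In males at 15 weeks Cyp4v3 (-1.17, adjusted p = 0.00607) and Sult1c2 (-1.01, adjusted p = 0.0162) were called lower (2.82% against 8.92%, 4.37% higher and 4.55% lower). In females at 15 weeks Gsta3 was called higher (1.35, adjusted p = 0.042; 1.41% against 0.0984%, 0.0861% higher and 0.0123% lower), a call kept in 2 of 10 fits that left out 1 library.

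The difference between the sexes in response was tested as an interaction. In edgeR no member passed at 9 weeks (0 of 71, against 0% of all genes) or at 15 weeks (0 of 71, against 0.00615%), with 3 and 4 members at an unadjusted p under 0.05 and none by DESeq2. Gsta3 illustrates the limits of this test. Its change in males was 0.18 at 9 weeks (adjusted p = 0.722) and 0.49 at 15 weeks (adjusted p = 0.214), and its interaction, male minus female, was -1.16 at 9 weeks (adjusted p = 0.591) and -0.86 at 15 weeks (adjusted p = 0.587). A difference between the sexes in the response of Gsta3 was thus not shown.

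Averaged over vehicle, 9 and 15 weeks, 13 members were called lower in males than in females. Of 71 tested members 14 were called (13 lower and 1 higher in males), or 19.7% against 3.52% of all tested genes, of which 1.37% were higher and 2.15% lower in males. They were 7 of 38 Cyp, 4 of 9 Ugt, 3 of 6 Sult and none of 18 Gst genes, of which 8 had an unadjusted p under 0.05, and all 9 Ugt genes were below 0. The P450s with the largest differences were Cyp3a44, which is known from female mouse liver, at -3.30 ± 0.76 (adjusted p = 0.0145), Cyp3a25 at -2.98 ± 0.73 (adjusted p = 0.0179), Cyp4b1 at -2.66 ± 0.74 (adjusted p = 0.0334) and Cyp2c66 at -2.65 ± 0.68 (adjusted p = 0.0233). Among the conjugating enzymes Ugt2b5 had -2.09 ± 0.56 (adjusted p = 0.0282) and Ugt1a1 -1.85 ± 0.47 (adjusted p = 0.0218). Without female 9 weeks replicate 5, Cyp4b1 had -1.61 (adjusted p = 0.149), and Cyp2c66, Ugt2b5 and Ugt1a1 had adjusted p of 0.0545, 0.0748 and 0.0627, so that 4 of these 6 lost their call, whereas Cyp3a44 and Cyp3a25 kept theirs.

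These are log2 differences of genes with wide ranges. Cyp4b1 had a median of 7.764 FPKM in females (0.2022 to 54.26, n = 15) and 0.7998 FPKM in males (0.0852 to 24.71, n = 15), and Cyp3a44 1.339 FPKM (0 to 6.892) and 0.09716 FPKM (0 to 2.536). Ugt1a1 had 17.06 FPKM (1.978 to 53.73) and 4.775 FPKM (1.902 to 34.64), and Ugt2b5 9.768 FPKM (0.8846 to 29.11) and 2.623 FPKM (0 to 10.48). The sexes overlapped in all 4. Sult1c2 had 19.58 FPKM (9.983 to 34.04) in females and 9.991 FPKM (6.213 to 30.84) in males, a log2 difference of -0.72 ± 0.16 (adjusted p = 0.0109). Cyp2f2 was the 1 member higher in males, with 2.076 FPKM (0.06184 to 13.7) in females and 5.21 FPKM (0.2128 to 17.12) in males. Its log2 difference was 1.48 ± 0.45 (adjusted p = 0.0481). That call held in 6 of 30 fits that left out 1 library and in 4 of 8 other alternatives.

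Marker lists also differed between the sexes. All 6 tested distal colon markers were above 0 in males against females (median 1.65 on the log2 scale, 1 called). Of 8 smooth muscle markers 6 were called higher in males, and all 10 mesenchyme markers were above 0. For smooth muscle the median sum was 79.34 CPM in male vehicle (5436 CPM in replicate 1) and 7.51 CPM in female vehicle. At 9 weeks it was lower in males, 42.7 against 61.82 CPM, and at 15 weeks 25.31 against 11.18 CPM. Mesenchyme medians in males and females were 200.1 and 41.69 CPM in vehicle. They were 248.8 and 256.8 CPM at 9 weeks and 78.96 and 66.64 CPM at 15 weeks. With the distal colon score or the mesenchyme score as a covariate, no member was called. The count was 7 without female 9 weeks replicate 5 and 23 without female vehicle replicate 1. Calls over all genes in these fits are not given here, so these changes cannot be called particular to the members. Sex and the share of distal or deeper tissue in the scrape cannot be told apart by these values. In vehicle mice alone no member was called by edgeR (0 of 71, against 0.178% of all genes, 0.141% higher and 0.0369% lower), with 22 at an unadjusted p under 0.05 and 2 called by DESeq2. No share of all genes is given for the 22 or for the 2, so neither can be called particular to the members. Gsta3, chosen here after its values were seen, had 3.946 to 10.15 FPKM in female and 12.37 to 18.31 FPKM in male vehicle mice, groups that did not overlap, with a log2 difference of 1.09 (adjusted p = 0.067).

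**Figure D5:**
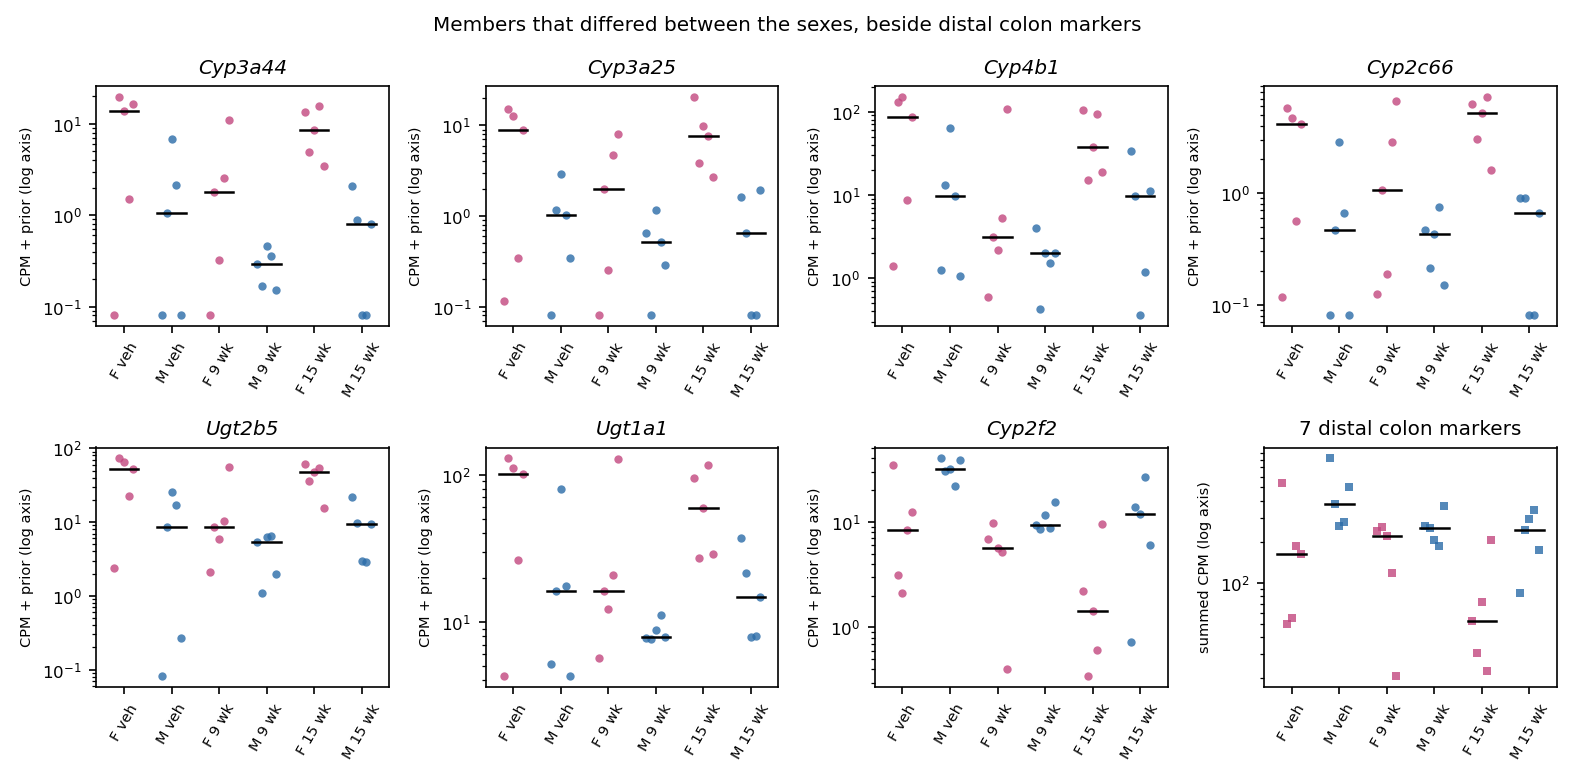
CPM (log axis, prior count of 2) in each library by group, with group medians as lines, for Cyp3a44, Cyp3a25, Cyp4b1, Cyp2c66, Ugt2b5, Ugt1a1 and Cyp2f2, beside the summed CPM of the distal colon markers. Female 9 weeks replicate 5, with 20.7 CPM of distal colon markers, was the highest of its group for Cyp4b1, Cyp3a44, Ugt2b5 and Ugt1a1.

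Regulators and partner genes of the pathway were read from lists, beside the 8.51% of all tested genes called at 9 weeks and 7.79% at 15 weeks. Of 13 xenobiotic receptors and regulators, 2 (15.4%) were called lower at 9 weeks, Ppara, the fatty acid sensing receptor (-1.12, adjusted p = 0.0235, or 0.0827 without male vehicle replicate 3), and Vdr, the vitamin D receptor (-0.49, adjusted p = 0.00252), and 1 (7.69%) at 15 weeks, Nr1i3 or CAR (-1.0, adjusted p = 0.0414). The Nr1i3 call held in 9 of 20 fits that left out 1 library and in 3 of 9 other alternatives, with an adjusted p of 0.124 without female vehicle replicate 1. None was called higher. Of 9 NRF2 target genes, Hmox1, heme oxygenase, was called higher at 9 weeks (0.87, adjusted p = 0.0322, called in 13 of 20 such fits), and at 15 weeks Nqo1, a quinone reductase (0.70, adjusted p = 0.0248), and Srxn1 (0.57, adjusted p = 0.00808) were, with all 9 above 0. Of the 3 tested AHR target genes Nqo1 alone was called, at 15 weeks, and at 9 weeks 1 had an unadjusted p under 0.05. Ahrr, the AHR repressor, was the 1 gene of the whole table whose sex interaction passed at 15 weeks (-3.10, male minus female, adjusted p = 0.0287), at levels under 1 FPKM, and is named after its values were seen. Its mean was 0.1611 FPKM in male vehicle and 0.007271 FPKM in males at 15 weeks, and 0.03587 and 0.08304 FPKM in females. The 5 P450 redox partners gave no call at either time in edgeR, with 0 at an unadjusted p under 0.05.

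Among 18 tested phase I enzymes outside the P450s, 3 (16.7%) were called lower at 9 weeks, Maob, a monoamine oxidase (-1.01, adjusted p = 0.00475), and the epoxide hydrolases Ephx2 (-0.63, adjusted p = 0.0012) and Ephx1 (-0.43, adjusted p = 0.0263). At 15 weeks 5 (27.8%) were called. Cbr3, a carbonyl reductase, was called higher (0.75, adjusted p = 0.0379, in 11 of 20 fits that left out 1 library), and Maob (-0.80, adjusted p = 0.0254) and the flavin monooxygenases Fmo1 (-1.75, adjusted p = 0.0247), Fmo2 (-1.72, adjusted p = 0.0225) and Fmo4 (-0.96, adjusted p = 0.00602) were called lower. The Fmo2 value turned positive with the distal colon score as a covariate (0.31, adjusted p = 0.757). Of 11 other phase II and cofactor genes, Ugdh, which makes the UDP-glucuronic acid used by the Ugt enzymes, was called lower at 9 weeks (-0.73, adjusted p = 0.038), a call that held in 7 of 20 fits that left out 1 library and in 5 of 9 other alternatives, and none was called at 15 weeks, where 6 had an unadjusted p under 0.05. Of 7 efflux transporters, Abcb1a, a P-glycoprotein gene, was called lower at 9 weeks (-0.83, adjusted p = 0.00613) and its paralog Abcb1b at 15 weeks (-1.39, adjusted p = 0.0182). Without female vehicle replicate 1 the 15-week calls of Abcb1b, Maob and Fmo1 were lost (adjusted p = 0.0587, 0.0618 and 0.08), and without male vehicle replicate 1 that of Fmo2 was (adjusted p = 0.114).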

How the data were processed

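RNA from 30 colon scrapes was analysed, 5 mice in each of 6 groups taken from the labels. The authors made stranded poly(A) libraries, trimmed reads with Trim Galore, aligned them to GRCm38 (mm10) with STAR and counted them with featureCounts. The deposited table holds raw counts, and the deposited FPKM values are the authors' StringTie estimates. The TPM and coverage values deposited beside them, also from StringTie by the authors, were not used. How reads of overlapping genes were assigned is not given in the sources used here. Counts were 9265804 to 30806392 per library. Duplicates were not removed, so floors (3 counts) cover counting error only. No 2 libraries of a group were copies (60 pairs, Spearman 0.9362 to 0.9758).

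Counts were tested with edgeR 4.0.16 (limma 3.58.1, R 4.3.3), by the quasi-likelihood test on TMM-scaled counts of the 16261 genes passing filterByExpr. Each of the 6 groups had its own coefficient in 1 fit over the 30 libraries (common BCV, the biological coefficient of variation, 0.319), and Benjamini-Hochberg adjustment ran over all tested genes in each of 11 comparisons. Comparisons averaged over the sexes weigh both equally. Calls needed an adjusted p under 0.05, a log2 fold change beyond 0.4 and a mean of at least 1 FPKM in 1 group, interactions the adjusted p alone. The p-values measure the spread between mice. DESeq2 1.42.0 was an alternative, as were other scaling, filters, covariates and left-out libraries. The scripts were tested on simulated data. Named were Cyp2e1, the 3 members of each family with the highest mean FPKM, and the called members or pathway genes with the largest changes. Other called members at 9 and 15 weeks, the P450s given by counts alone, Ugt1a8, Ugt1a9, Ugt1a10, Gstt3 and Gstm4 were added after their values were seen. The members, gene lists and tests were chosen with earlier results of these data known, although the rule for members reads symbols alone. Gene positions are from the authors' annotation, and promoters from RefSeq on GRCm38.p6.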

Additional observations from a re-analysis of the deposited data

Results flagged for a closer look

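In each group of 5, the highest and lowest FPKM of the named members were set against the rest, and a library was marked where its gap to the nearest exceeded 0.71 of the group's range. Of 192 groups tested 22 were marked. For normally distributed values chance marks about 1 in 20 groups. The FPKM were not logged, and some members were named through calls that rest on the marked libraries. The 22 marks can therefore not be set against that rate. Female 9 weeks replicate 5 gave 9 of the 22, all high. Its levels were 1800 FPKM for Cyp2c55 (group median 424), 187 for Cyp2c65, 120 for Ugt1a7c, 116 for Ugt1a6a, 53.7 for Ugt1a1, 37.2 for Cyp4b1 (group median 1.22), 23 for Sult1c2, 19.7 for Ugt2b5 and 3.48 for Cyp3a44. This is the library with 19940 CPM of surface colonocyte and 20.7 CPM of distal colon markers, and the part of its tissue make-up in these values was not tested.

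Female vehicle replicate 1 was high for Cyp2d34 (250 FPKM), Cyp2d12 (76) and Cyp2f2 (13.7), and male vehicle replicate 3 for Ugt1a6a (78.6), Ugt1a1 (34.6) and Cyp4b1 (24.7). Female 15 weeks replicate 5 was high for Cyp2d12 (25.5 FPKM) and Cyp2f2 (3.89). Single marks fell on male 9 weeks replicate 5 for Cyp2d12 (41.5 FPKM), male 15 weeks replicate 1 for Ugt1a6a (50.6) and male vehicle replicate 1 for Ugt2b35, the 1 low value (5, group median 9.42). For Cyp2e1, female 9 weeks replicate 3 (0.0662 FPKM) and male 15 weeks replicate 5 (0.31) were marked in groups whose median was 0.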

How the results depend on the processing

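Numbers of members called were recomputed under each alternative. Shares of all genes called under the alternatives are not given, so no shift below can be called particular to the members. At 9 weeks with the sexes averaged (13), they were 24 with the distal colon score as a covariate and 25 without the 4 libraries that stood apart, an alternative chosen after seeing the data. At 15 weeks (11) they were 5 with the distal colon score, 6 with the compared groups alone in the fit and 3 without the 4 libraries. Between 15 and 9 weeks (1) they were 2 by adjusted p alone, 0 with the mesenchyme or the distal colon score, 3 with the compared groups, 24 without the 4 libraries and 4 by DESeq2. In males at 9 weeks (9) they were 15 with the distal colon score and 14 with the compared groups or without the 4 libraries, and in females at 9 weeks (2) 1 with the compared groups or the mesenchyme score, 5 with the distal colon score, 20 without the 4 libraries and 4 by DESeq2. In males at 15 weeks (2) they were 4 by adjusted p alone, without the 4 libraries or by DESeq2, 7 with the mesenchyme score and 1 with the compared groups, and in females at 15 weeks (1) 0 with the compared groups or without the 4 libraries. For males against females averaged (14) they were 0 with either score, and in vehicle alone (0) 2 by DESeq2. The causes of these shifts were not tested. Of the genes named, the Fmo2 value at 15 weeks reversed, to 0.31, with the distal colon score.

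Leaving out 1 library at a time gave 11 to 24 members at 9 weeks, 6 to 14 at 15 weeks, 0 to 23 between 15 and 9 weeks, 3 to 10 and 1 to 13 in males and females at 9 weeks, 1 to 5 and 0 to 1 at 15 weeks, 7 to 23 for males against females averaged, 0 to 5 in vehicle and 0 for both interactions. Counts moved by over 1.5 times without female 9 weeks replicate 5 (24, 23, 13 and 7 for 9 weeks, 15 against 9 weeks, females at 9 weeks and the sexes) and without female vehicle replicate 1 (6 at 15 weeks, 4 in females at 9 weeks, 23 and 5 for the sexes). At 15 weeks they were 7 without female 15 weeks replicate 2 or male 15 weeks replicate 5. In males at 9 weeks they were 3 without 9-week replicate 1, 2 or 3 and 4 without 9-week replicate 4 or vehicle replicate 3, and in males at 15 weeks 5, 4 and 1 without 15-week replicates 3, 4 and 5. In females at 9 weeks they were 1 without vehicle replicate 2, 3 or 5 or 9-week replicate 1 or 4. For the sexes averaged they were 9 without female vehicle replicate 2 or 3. Replicate numbers were not treated as pairs: 12 of 75 correlations of deviations between same-numbered libraries were above 0.1 (-0.581 to 0.467). Between the groups killed at 9 weeks, those of replicate 1 ran from 0.0626 to 0.467. Differently numbered libraries were not compared, so the count does not decide whether some numbers were linked. With the replicate block, 13 members were called at 9 weeks, 8 at 15 weeks, 0 in females at 15 weeks and 9 for males against females. Depth limits Cyp2e1 most, with 0 to 52 counts per library.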

Other observations

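Some detoxification genes follow the time of day, so genes of the circadian clock were read beside them. Averaged over sex, all 9 day-phase clock genes were below 0 at 9 weeks (median log2 fold change -0.82) and at 15 weeks (median -0.92). Of the 9, 1 was called lower at each time. In females at 15 weeks, Hlf (0.70), Ciart (0.27), Dbp (0.11) and Per1 (0.09) were above 0. The others ran from -0.28 (Nr1d1) to -0.03 (Tef), and none was called. No sex interaction passed (Dbp -2.91 at 15 weeks, male minus female, edgeR adjusted p = 0.545). The 5 night-phase genes summed to medians of 234.7 CPM in female and 185.8 CPM in male vehicle. They were 206.6 and 242.9 CPM at 9 weeks and 199.7 and 229 CPM at 15 weeks. The time of day at which mice were killed is not given in the sources used here, and its part in the members' values was not tested.

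Cyp2u1, outside the genes named by rule, had a log2 fold change of -1.40 at 9 weeks (adjusted p = 0.000271) but a mean under 1 FPKM in every group. Its levels were 0.8906, 0.144, 0.3098, 0.5684 and 0.4537 FPKM in female vehicle and 0.2242, 0.3919, 0.2535, 0.127 and 0.1704 FPKM in females at 9 weeks. In males they were 1.372, 0.4488, 0.9321, 0.2529 and 0.8863 FPKM in vehicle and 0.1827, 0.1387, 0.1492, 0.128 and 0.4154 FPKM at 9 weeks. The groups overlapped in both sexes.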
